A study of Mus musculus with 2 samples.

Results

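Matrix proteases and their inhibitors were described through 9 genes: the plasminogen-system genes Plau, Plaur, Plat and Serpine2, the inhibitor genes Timp2 and Timp3, and the metalloproteinase genes Mmp2, Mmp9 and Mmp14. Peaks of accessible chromatin were counted for a gene when they overlapped its gene body in the GENCODE M1 annotation or lay within 50 kb of it. By this rule 31 of the 17784 vehicle peaks and 46 of the 22600 TGFβ 2 h peaks belonged to the 9 genes. No peak was counted at more than 1 of them.

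Accessibility was measured by DNaseI-seq, which maps DNA that the nuclease DNaseI can reach in nuclei, in NMuMG cells, a mouse mammary gland epithelial line. Both groups were kept for 6 h without serum and insulin. The TGFβ 2 h group then received TGFβ1 at 5 ng/ml for 2 h, and the vehicle group received the carrier for the same time. A single peak list was used per condition, so the spread between replicates is unknown, no test between the conditions was made and no p-value is given.

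Cells dissolve the matrix around them with proteases that are made as inactive precursors. The product of Plau, the urokinase-type plasminogen activator, binds its receptor Plaur at the cell surface and turns plasminogen into the broad protease plasmin. Plat encodes the tissue-type activator, and Serpine2 encodes protease nexin-1, a serpin that blocks such serine proteases. Mmp2 and Mmp9 encode gelatinases, Mmp14 encodes a membrane-anchored metalloproteinase that activates the Mmp2 precursor, and the TIMP proteins inhibit these metalloproteinases. TGFβ is a known regulator of both proteases and inhibitors in epithelial cells.

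Each peak was called shared when at least 1 bp overlapped a peak of the other list, and otherwise vehicle-only or TGFβ 2 h-only. Those names say in which list a peak was called, not that signal was absent from the other condition. A promoter peak touched the 1000 bp on either side of any annotated transcript start, and every other peak was called distal. The score is the authors' whole-number peak score. Its lowest value was 540 and its highest 1000, called the ceiling here, and it ranks a peak only within its own list. At the ceiling stood 53.2% of all vehicle and 44.3% of all TGFβ 2 h peaks, which have no order among themselves. The rank of a peak is given as the share of its own list that scored no higher, and a difference in score between the lists is not read as a change in signal.

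Of the 9 genes, 6 had a distal peak that was TGFβ 2 h-only: Serpine2, Plau, Plaur, Plat, Timp2 and Timp3. The highest-scoring one at each gene is shown as the 200 bp around its midpoint on mm9 (NCBIM37), 5′ to 3′ on the strand of the gene, to show the sequence under peaks called in the TGFβ 2 h list alone. Capitals mark the AP-1 string TGAGTCA or TGACTCA and the SMAD core CAGAC, or GTCTG on the other strand.
Serpine2 chr1:79817792-79817991, minus strand: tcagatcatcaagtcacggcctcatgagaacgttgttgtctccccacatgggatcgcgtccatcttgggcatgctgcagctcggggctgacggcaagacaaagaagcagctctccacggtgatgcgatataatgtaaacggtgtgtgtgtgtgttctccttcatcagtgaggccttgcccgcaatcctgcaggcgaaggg
Plau chr14:21630644-21630843, plus strand: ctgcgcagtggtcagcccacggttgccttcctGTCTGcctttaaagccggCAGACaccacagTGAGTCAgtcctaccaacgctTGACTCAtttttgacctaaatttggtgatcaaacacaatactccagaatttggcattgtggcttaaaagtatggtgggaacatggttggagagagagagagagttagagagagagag
Plaur chr7:25234127-25234326, plus strand: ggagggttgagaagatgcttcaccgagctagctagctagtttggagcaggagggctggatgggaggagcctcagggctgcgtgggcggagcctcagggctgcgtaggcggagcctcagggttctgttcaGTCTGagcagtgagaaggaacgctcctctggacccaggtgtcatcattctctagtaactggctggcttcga
Plat chr8:23874678-23874877, plus strand: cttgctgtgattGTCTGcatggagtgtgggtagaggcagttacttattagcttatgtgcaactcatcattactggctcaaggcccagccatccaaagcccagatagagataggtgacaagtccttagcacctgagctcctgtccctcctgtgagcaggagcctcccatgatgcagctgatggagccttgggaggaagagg
Timp2 chr11:118226562-118226761, minus strand: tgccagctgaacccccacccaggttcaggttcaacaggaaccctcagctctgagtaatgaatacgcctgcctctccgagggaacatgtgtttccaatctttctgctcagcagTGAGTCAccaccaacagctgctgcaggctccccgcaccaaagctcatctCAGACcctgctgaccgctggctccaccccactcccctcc
Timp3 chr10:85773413-85773612, plus strand: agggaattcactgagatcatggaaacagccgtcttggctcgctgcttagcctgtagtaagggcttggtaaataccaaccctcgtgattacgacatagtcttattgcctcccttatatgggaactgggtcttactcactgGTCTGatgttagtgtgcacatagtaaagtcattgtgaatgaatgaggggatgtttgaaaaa
The Plau interval held 2 AP-1 strings whose first bases were 21 bp apart, at positions 63 and 84, behind SMAD cores at positions 33 and 51. The Timp2 interval held 1 AP-1 string at position 113 and a SMAD core at position 162. The Plaur, Plat and Timp3 intervals held 1 SMAD core each and no AP-1 string, and the Serpine2 interval, which lay across a coding exon, held neither.

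Across the 9 genes, the TGFβ 2 h list had 1.48 times as many peaks as the vehicle list, against 1.27 times over the whole lists. Of the 46 TGFβ 2 h peaks, 13 were TGFβ 2 h-only, or 28.3% (Wilson 95% interval 17.3% to 42.5%, counting error only), beside 33.7% of all TGFβ 2 h peaks. Of the 31 vehicle peaks, 1 was vehicle-only, or 3.23% (0.572% to 16.2%), beside 17.6% of all vehicle peaks. With the TGFβ 2 h list shortened by score to the length of the vehicle list, 9 of 36 member TGFβ 2 h peaks were TGFβ 2 h-only (25.0%), against 22.8% of that shorter list. In that setting 5 of 31 member vehicle peaks were vehicle-only (16.1%), against 23.9% of all. Among peaks at or above the median score the shares were 39.1% (9 of 23) against 25.2%, and 12.5% (2 of 16) against 11.4%. The order against the whole lists thus changed with the setting.

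The unshared peaks lay mostly away from start sites. Among distal TGFβ 2 h peaks of the 9 genes, 11 of 23 were TGFβ 2 h-only (47.8%, 29.2% to 67.0%), where 55.3% of all distal TGFβ 2 h peaks were. Among promoter peaks, 2 of 23 were (8.7%, 2.42% to 26.8%), where 10.1% of all promoter TGFβ 2 h peaks were. Distal peaks made up 84.6% of the TGFβ 2 h-only peaks of the 9 genes and 85.7% of those of the whole list.

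**Figure D1:**
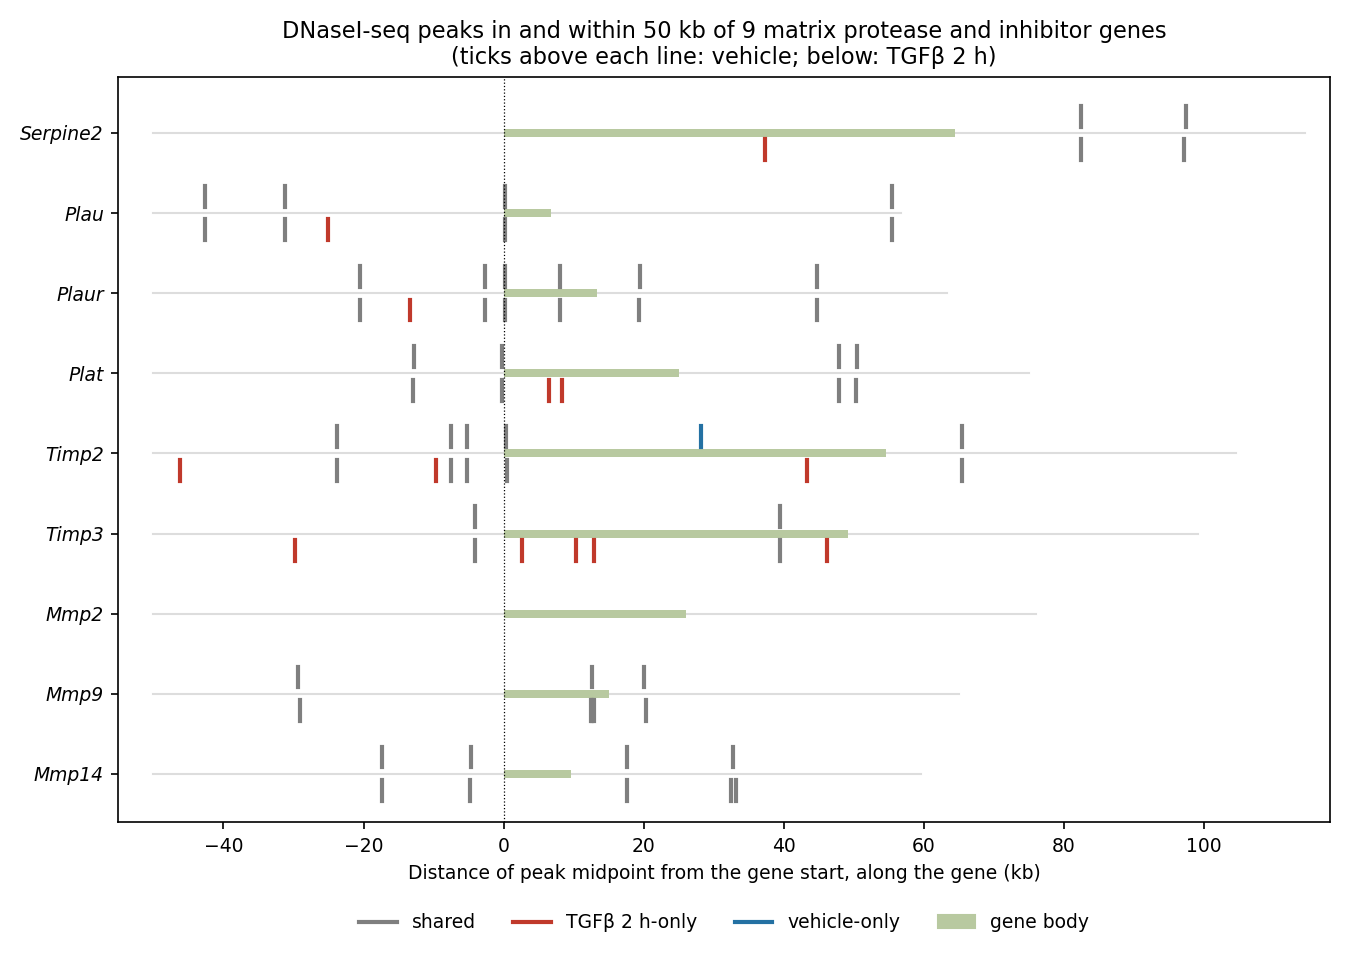
Map of the peaks at each gene: the horizontal axis is the distance in kb of a peak midpoint from the gene start, read along the gene, with vehicle peaks drawn above each line and TGFβ 2 h peaks below it, and the gene body in green. The 13 red TGFβ 2 h-only ticks lie at Serpine2, Plau, Plaur, Plat, Timp2 and Timp3, the 1 blue vehicle-only tick lies inside Timp2, and the line of Mmp2 is empty.

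The counts were uneven between the families. The plasminogen genes had 16 vehicle and 21 TGFβ 2 h peaks, of which 5 (23.8%) were TGFβ 2 h-only. Timp2 and Timp3 together had 8 vehicle and 15 TGFβ 2 h peaks, of which 8 (53.3%) were TGFβ 2 h-only, and 1 of the 8 vehicle peaks was vehicle-only. Timp2 had 3 of the 8 TGFβ 2 h-only peaks and Timp3 had 5, of which the shortened TGFβ 2 h list kept 2 and 3. Over the whole list the TGFβ 2 h-only share was 33.7%, but 55.3% among distal and 10.1% among promoter peaks. The families differed in this mix. Distal were 5 of 8 TGFβ 2 h peaks at Timp2, with 2 of them TGFβ 2 h-only, and 6 of 7 at Timp3, with 4. At the plasminogen genes they were 1 of 3 (Serpine2), 3 of 5 (Plau), 4 of 7 (Plaur) and 3 of 6 (Plat). Promoter peaks were 4 of 5 at Mmp9 and all 5 at Mmp14. The metalloproteinase genes went from 7 to 10 peaks without any unshared peak, and the 3 added peaks were pieces that overlapped a single broader vehicle peak at Mmp9 and at Lrp10, next to Mmp14. That count of 0 rests on the 1 bp rule: with a reciprocal overlap of 50%, 3 peaks at Mmp9 and 1 at Mmp14 were TGFβ 2 h-only. Whether the families differ beyond what a repeat experiment would show was not tested.

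Gene by gene, 6 of 9 (Serpine2, Plau, Plaur, Plat, Timp2 and Timp3) had at least 1 TGFβ 2 h-only peak, against 40.5% of all 22350 protein-coding genes under the same window rule. A vehicle-only peak lay at 1 of 9, Timp2, against 25.9%. More TGFβ 2 h than vehicle peaks were found at 8 of 9, all but Mmp2, against 33.7%. Gene windows near many peaks pass such counts more easily, and these windows held 26.6 vehicle and 39.5 TGFβ 2 h peaks per Mb, against 6.74 and 8.56 over the genome. The median number of peaks per member gene was 4 in the vehicle list and 5 in the TGFβ 2 h list, against 2 in each list for all protein-coding genes.

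**Figure D2:**
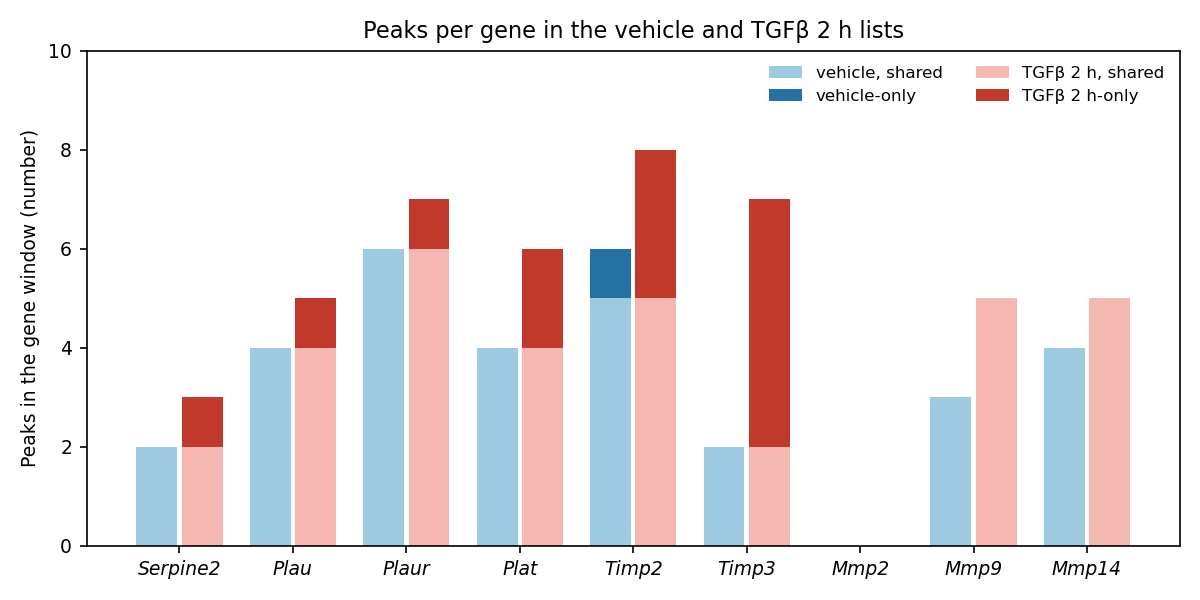
Number of peaks in the window of each gene (vertical axis) in the vehicle list (blue bars) and the TGFβ 2 h list (red bars), with unshared peaks in the darker shade. Timp3 rises from 2 to 7 peaks and Timp2 from 6 to 8, while Mmp9 and Mmp14 gain no dark segment.

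At Plau (ENSMUSG00000021822.2, chr14:21655884-21662610, plus strand), which encodes urokinase, 4 vehicle and 5 TGFβ 2 h peaks were called. The start site carried a peak in both lists, with a score of 723 in the vehicle list, where 24.3% of peaks scored no higher, and of 788 in the TGFβ 2 h list, where 37.4% did. The start site was therefore open under both conditions and stood in the lower part of each list. Upstream, 31.21 kb from the start in an intergenic stretch, a shared peak scored 675 in the vehicle list (19.1% of peaks no higher) and 949 in the TGFβ 2 h list (51.8%). Between the 2, 25.14 kb upstream, lay the TGFβ 2 h-only peak chr14:21630594-21630892, 299 bp wide with a score of 742. This is the peak whose sequence holds the AP-1 pair. The nearest vehicle peak was 5.53 kb away, and the nearest protein-coding start was that of Camk2g, 17.4 kb away, so the window rule alone ties this peak to Plau. The widest shared peak at the ceiling lay downstream at 55.46 kb, 845 bp wide in the TGFβ 2 h list and 1064 bp in the vehicle list.

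Plaur (ENSMUSG00000046223.9, chr7:25247519-25260892, plus strand), the urokinase receptor gene, had 6 vehicle and 7 TGFβ 2 h peaks. Its start-site peak scored 893 in the vehicle list (39.3% of peaks no higher) and 926 in the TGFβ 2 h list (49.9%), at widths of 585 and 571 bp. A distal peak 2.68 kb upstream was at the ceiling in both lists, and an intronic peak at 8.05 kb scored 744 in the vehicle list (26.4% of peaks no higher) and 853 in the TGFβ 2 h list (43.5%). All 3 were shared, so the start and its closest neighbours were accessible with and without TGFβ. The TGFβ 2 h-only peak chr7:25233920-25234533, 13.29 kb upstream in an intergenic stretch, was 614 bp wide with a score of 976, above 53.9% of its list or level with it. The nearest vehicle peak was 6.72 kb away, and the nearest protein-coding start was that of Plaur.

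The AP-1 strings at Plau and Plaur were not confined to the centre of the peaks. Over the whole TGFβ 2 h peaks, 3 of 5 at Plau and 4 of 7 at Plaur held an AP-1 string, in all 10 strings, or 1.42 per kb of peak. Over all 9 genes the count was 11 of 46 (23.9%) at 0.562 per kb, near the 28.9% of peaks and 0.579 per kb of the whole TGFβ 2 h list. The other 7 genes had such a string in 4 of 34 peaks (11.8%) at 0.255 per kb. Among distal peaks alone the counts were 6 of 7 at Plau and Plaur, 4 of 16 at the other genes, 10 of 23 (43.5%) in all and 44.8% over the whole list. The pair of genes was set apart after these counts were seen, so the contrast is a description only. Each string at the 2 genes is shown with 10 bases on either side, on the plus strand, with the string in capitals, because they recur at shared and TGFβ 2 h-only peaks alike.
Plau chr14:21624345-21624351, shared peak, 31.54 kb upstream: gaagtacctcTGAGTCAgagctccaga
Plau chr14:21624790-21624796, shared peak, 31.09 kb upstream: accagagagcTGACTCAgagggggaaa
Plau chr14:21630706-21630712, TGFβ 2 h-only peak, 25.18 kb upstream: gacaccacagTGAGTCAgtcctaccaa
Plau chr14:21630727-21630733, TGFβ 2 h-only peak, 25.15 kb upstream: taccaacgctTGACTCAtttttgacct
Plau chr14:21711417-21711423, shared peak, 55.54 kb downstream of the start: ctgtaaagcaTGAGTCAgagtcagtgg
Plaur chr7:25234387-25234393, TGFβ 2 h-only peak, 13.13 kb upstream: ataagaggagTGACTCAgaggccgagc
Plaur chr7:25234441-25234447, TGFβ 2 h-only peak, 13.08 kb upstream: tgaagtcatcTGAGTCAtctcttactc
Plaur chr7:25244593-25244599, shared peak, 2.92 kb upstream: tgaggccaggTGAGTCAccagaaggaa
Plaur chr7:25247433-25247439, shared start-site peak, 0.08 kb upstream: cccctggagcTGACTCActctttagca
Plaur chr7:25255572-25255578, shared peak, 8.06 kb downstream of the start: gccagtggacTGACTCAgctcagacac
The 2 strings of the Plaur TGFβ 2 h-only peak lay outside the 200 bp shown above, towards the gene. A match is a run of letters and not a measured binding site.

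Plat (ENSMUSG00000031538.5, chr8:23868216-23893319, plus strand), which encodes the tissue-type plasminogen activator, had 4 vehicle and 6 TGFβ 2 h peaks. Its start-site peak scored 797 in the vehicle list (31.4% of peaks no higher) and stood at the ceiling in the TGFβ 2 h list, at nearly equal widths of 1023 and 961 bp. Of the 4 genes with a peak at the main start in both lists, Plat was the one whose start-site peak reached the ceiling in the TGFβ 2 h list alone. The 2 TGFβ 2 h-only peaks lay side by side in an intron: chr8:23874548-23875007 at 6.56 kb, with a score of 989 and a width of 460 bp, and chr8:23876173-23876838 at 8.29 kb, with 682 and 666 bp. The second held the only AP-1 string of the Plat peaks, and the nearest vehicle peaks were 6.08 and 7.71 kb away. A distal peak 12.93 kb upstream was shared and scored 853 in the vehicle list (36.2% of peaks no higher) and 614 in the TGFβ 2 h list (14.5%).

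The middle of the Plat start-site peak held the string TGACATCA, which differs by 1 letter from the cyclic AMP response element TGACGTCA and is marked in capitals.
Plat chr8:23867912-23868111, plus strand: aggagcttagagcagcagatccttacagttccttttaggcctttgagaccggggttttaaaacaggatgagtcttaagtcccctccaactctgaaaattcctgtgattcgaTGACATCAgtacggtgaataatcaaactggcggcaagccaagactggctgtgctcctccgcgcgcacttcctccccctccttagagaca
The string was chosen after this sequence was seen. On either strand it stood in the central 200 bp of 1 of the 23 promoter TGFβ 2 h peaks of the 9 genes (4.35%) and of 0.693% of all 10817 promoter TGFβ 2 h peaks, and in 1 of 23 distal ones against 2.02% of all 11783. None of the 23 promoter peaks held an AP-1 string in its central 200 bp, where 3.74% of all promoter TGFβ 2 h peaks did.

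Serpine2 (ENSMUSG00000026249.4, chr1:79790772-79855271, minus strand), the protease nexin-1 gene, had the thinnest set of the plasminogen group, with 2 vehicle and 3 TGFβ 2 h peaks. Both shared peaks lay past the far end of the gene at the starts of Wdfy1 and Mrpl44. The start of Serpine2 itself had no peak in either list. Its TGFβ 2 h-only peak, chr1:79817784-79817999, lay 37.38 kb into the gene over a coding exon, was 216 bp wide and scored 580, a value that only 8.1% of the list did not exceed. At 44.8 kb from the nearest vehicle peak it was the most isolated of the 13, and no string searched was found in its central 200 bp.

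**Figure D3:**
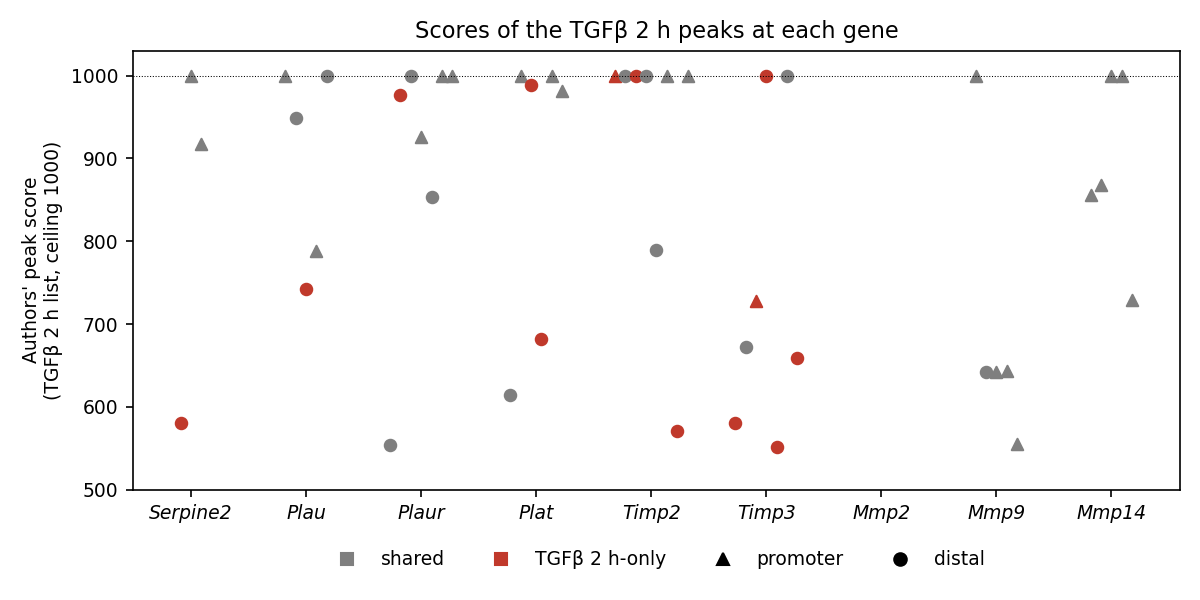
Authors' peak score (vertical axis, not starting at 0, with the ceiling of 1000 marked by the dotted line) of each TGFβ 2 h peak at each gene, in order of position along the gene from left to right. Grey marks shared and red TGFβ 2 h-only peaks, with triangles for promoter and circles for distal peaks; 3 red points, at Timp2 and Timp3, reach the ceiling, and Mmp2 has no point.

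Timp2 (ENSMUSG00000017466.3, chr11:118162383-118217054, minus strand), which encodes a metalloproteinase inhibitor that also takes part in the activation of the Mmp2 precursor, had 6 vehicle peaks, as many as Plaur, and 8 TGFβ 2 h peaks, the most of the 9 genes. Its start-site peak was at the ceiling in both lists and was 663 bp wide in the vehicle list and 867 bp in the TGFβ 2 h list. Upstream of the start stood a row of distal peaks. The one at 5.25 kb was shared, at the ceiling in the vehicle list and at 790 in the TGFβ 2 h list (37.6% of peaks no higher), the one at 7.54 kb was at the ceiling in both lists, and the one at 23.78 kb scored 993 in the vehicle list (46.4%) and stood at the ceiling in the TGFβ 2 h list. Within this row, 9.61 kb upstream, lay the TGFβ 2 h-only peak chr11:118226463-118226859, 397 bp wide and at the ceiling. The nearest vehicle peak was 1.63 kb away, the shortest such distance of the 13 TGFβ 2 h-only peaks, whose median was 7.71 kb.

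The remaining unshared peaks at Timp2 were of different kinds. A TGFβ 2 h-only peak in an intron at 43.29 kb, chr11:118173559-118173969, scored 571 and had its nearest protein-coding start at BC100451, 21.6 kb away. Another, chr11:118262927-118263713, 46.27 kb upstream and 787 bp wide, was at the ceiling, but it lay 0.086 kb from the start of Lgals3bp, a different gene, near the edge of the window. The single vehicle-only peak of the 9 genes, chr11:118188536-118189275, lay in an intron of Timp2 at 28.15 kb, was 740 bp wide and scored 808, a value that 32.3% of the vehicle list did not exceed. Its nearest protein-coding start was also that of BC100451, 6.42 kb away, and not that of Timp2. A further TGFβ 2 h-only peak, chr11:118270933-118271577 with a score of 801, lay just outside the window, 53.9 kb from the gene body, so the count at Timp2 turns on where the window ends.

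Timp3 (ENSMUSG00000020044.7, chr10:85763117-85812251, plus strand), whose product is an inhibitor that stays bound to the matrix, lies inside Syn3, which runs on the opposite strand, and of the 9 genes showed the widest difference in number between the lists, with 2 vehicle and 7 TGFβ 2 h peaks. The 5 TGFβ 2 h-only peaks made it 1 of the 0.908% of protein-coding genes with at least 5. That count fell to 1 among peaks that reached the median score and to 3 with the shortened TGFβ 2 h list. The DNA called accessible in its window rose from 1.48 kb to 3.7 kb. At the other 7 genes with peaks, that length lay between 1.66 and 4.55 kb in the vehicle list and between 1.64 and 5.44 kb in the TGFβ 2 h list.

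The outermost annotated start of Timp3 had no peak in either list. The TGFβ 2 h-only peak chr10:85765521-85766027, 507 bp wide with a score of 728, lay 0.175 kb from the start of a shorter Timp3 transcript, 2.66 kb into the gene, and was the only TGFβ 2 h-only peak at a start site of a member gene. Further in, intronic peaks at 10.4 kb (chr10:85773293-85773731, at the ceiling) and 12.93 kb (chr10:85775934-85776159, 551) followed, and chr10:85809013-85809527 at 46.15 kb scored 659 over the untranslated exon at the far end. The fifth, chr10:85732923-85733705, lay 29.8 kb upstream in the Syn3 intron with a score of 581. Of the shared peaks, the one at 39.48 kb was at the ceiling in both lists, and the one 4.09 kb upstream scored 827 in the vehicle list (34.0% of peaks no higher) and 672 in the TGFβ 2 h list (23.7%). The 5 unshared scores thus ran from 551 to 1000, and only the peak at 10.4 kb stood in the upper part of the list.

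**Figure D4:**
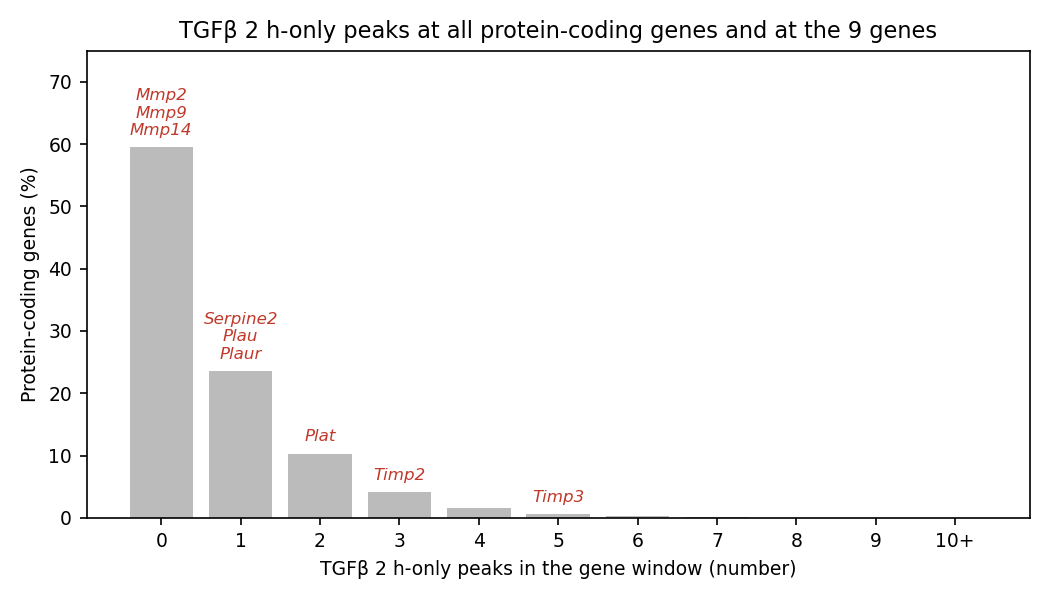
Share of all 22350 protein-coding genes (vertical axis, %) by the number of TGFβ 2 h-only peaks in their window (horizontal axis), with the 9 genes written above the bar they belong to. Timp3 stands at 5, where 0.55% of genes lie, Timp2 at 3 (4.11%), Plat at 2 (10.3%), Serpine2, Plau and Plaur at 1 (23.6%) and the 3 metalloproteinase genes at 0 (59.5%).

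Mmp2 (ENSMUSG00000031740.7, chr8:95351227-95377316, plus strand), the gelatinase A gene, had no peak in either list over a window of 126 kb. Such windows were common, at 22.6% of protein-coding genes. An empty window means that no interval was called, and with the read depth not in the lists it sets no limit on the signal there.

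Mmp9 (ENSMUSG00000017737.2, chr2:164766280-164781350, plus strand), the gelatinase B gene, had 3 vehicle and 5 TGFβ 2 h peaks, all shared. Its main start had no peak in either list. Late in the gene, the vehicle peak chr2:164778657-164779235, 579 bp wide with a score of 680, overlapped 3 narrow TGFβ 2 h peaks at chr2:164778705-164778795, chr2:164778872-164779023 and chr2:164779101-164779229, which were 91, 152 and 129 bp wide and scored 642, 642 and 643. The same stretch was thus called once in the vehicle list and in 3 pieces in the TGFβ 2 h list, near the start of a noncoding Mmp9 transcript. The other Mmp9 peaks lay at the starts of the neighbours Zfp335 (at the ceiling in both lists) and Slc12a5 (632 in the vehicle list, with 14.0% of peaks no higher, and 555 in the TGFβ 2 h list, with 3.2%).

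Mmp14 (ENSMUSG00000000957.8, chr14:55050441-55060095, plus strand), the membrane-type metalloproteinase gene, had 4 vehicle and 5 TGFβ 2 h peaks, all shared and all at the starts of other genes: Slc7a7, Mrpl52, a copy of U6 and Lrp10. The Lrp10 peak accounted for the difference in number, since the vehicle peak chr14:55082615-55083803 overlapped 2 peaks of the TGFβ 2 h list. No peak of either list lay within the gene body of Mmp14 or at its own start.

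At the main start of the genes, Plau, Plaur, Plat and Timp2, or 4 of 9, had a peak in both lists, against 41.4% of protein-coding genes. The other 5, Serpine2, Timp3, Mmp2, Mmp9 and Mmp14, had none in either list, against 54.6%. No main start had a peak in a single list. Many promoter peaks in the windows belonged to neighbours: 16 of the 23 promoter TGFβ 2 h peaks and 14 of the 19 promoter vehicle peaks lay at starts of other genes only. The member gene had the nearest protein-coding start for 24 of 46 TGFβ 2 h peaks, 12 of 31 vehicle peaks and 10 of the 13 TGFβ 2 h-only peaks.

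The TGFβ 2 h-only peaks of the 9 genes had a median width of 460 bp (216 to 787) and a median score of 728 (551 to 1000), where all TGFβ 2 h-only peaks had 436 bp and 669. Shared TGFβ 2 h peaks of the 9 genes had 643 bp and 981, against 723 bp and 1000 over the whole list. The median GC content of the central 200 bp was 49.5% in the TGFβ 2 h-only and 61.0% in the shared peaks, against 51.5% and 62.5% in all. Of the 13 TGFβ 2 h-only peaks, 3 (23.1%, 8.18% to 50.3%) were at the ceiling, where 7.77% of all TGFβ 2 h-only peaks were. The unshared peaks at these genes were thus narrower and lower in GC than the shared ones, as over the whole list. Among distal peaks alone the GC difference was smaller. The medians there were 48.0% in TGFβ 2 h-only and 54.2% in shared peaks of the 9 genes, against 51.0% and 53.0% in all.

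Among the 11 distal TGFβ 2 h-only peaks, 9 held the SMAD core in their central 200 bp (81.8%, 52.3% to 94.9%), where 54.5% of all 6519 distal TGFβ 2 h-only peaks did. The AP-1 string was held by 2 (18.2%, 5.14% to 47.7%), where 27.2% of all did, and over the whole peak by 4 (36.4%) against 45.2%. In the 12 distal shared peaks the counts were 8 for the SMAD core (66.7% against 47.2% of all) and 2 for AP-1 (16.7% against 23.5%). The SMAD core was therefore frequent in both classes at these genes. RUNX (TGTGGT) was held by 3 of the 11 (27.3% against 22.0%), the E-box CACCTG by 2 (18.2% against 16.8%) and the GC box GGGCGG by 1 (9.09% against 6.87%). TEAD (GGAATG), ETS (CCGGAA) and the cyclic AMP response element were found in none of the 11, against 14.9%, 3.27% and 0.307% of all. Strings were searched on both strands, and a missing string says only that these letters are not in the window. Among the 12 distal shared peaks, the 91 bp Mmp9 piece, counted for the SMAD core, and a 181 bp Plaur peak were shorter than 200 bp. There the window ran past the called peak, so a match may lie outside it.

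The shared peaks of the 9 genes were narrower in the TGFβ 2 h list. Over the 28 peaks that paired one to one, the TGFβ 2 h width was a median of 0.837 times the vehicle width (0.595 to 1.37), and 21 (75.0%) were narrower. Over all 13978 such pairs the median was 0.906 and 70.9% were narrower. By score, 13 of the 28 pairs (46.4%) were at the ceiling in both lists, against 54.7% of all pairs. The ceiling was reached in the TGFβ 2 h list alone by 2 (7.14% against 9.73%), the Plat start site and the Timp2 peak at 23.78 kb. It was reached in the vehicle list alone by 3 (10.7% against 9.25%), the Timp2 peak at 5.25 kb, the Mrpl52 start near Mmp14 and the peak 50.4 kb from the Plat start. Of the 10 pairs that reached it in neither list, 6 (60.0%) stood higher in the ranking of the TGFβ 2 h list, against 66.3% of all 3677 such pairs. All 4 shares were thus near those of the whole lists.

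**Figure D5:**
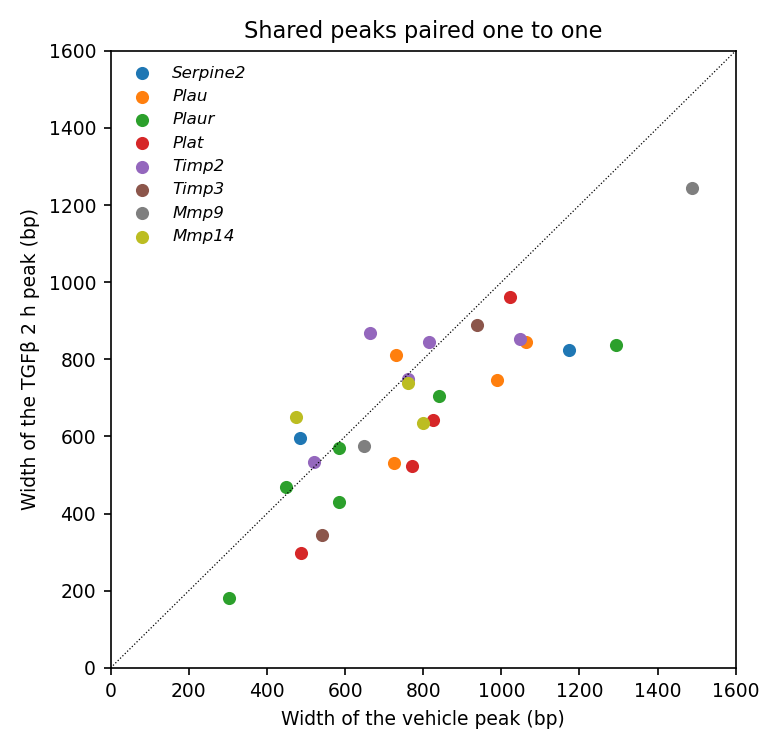
Width in bp of the 28 shared peaks that paired one to one, in the vehicle list (horizontal axis) and the TGFβ 2 h list (vertical axis), coloured by gene, with the dotted line at equal widths. Most points, 21 of 28, lie under the line.

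The 50 other genes of pericellular proteolysis that were listed for comparison held 141 vehicle and 155 TGFβ 2 h peaks, a peak near several of them being counted at each. Vehicle-only were 32 of the 141, against 17.6% of all vehicle peaks. TGFβ 2 h-only were 45 of the 155, against 33.7% of all TGFβ 2 h peaks. Of the 50 genes, 27 (54.0%) had a TGFβ 2 h-only peak, against 40.5% of protein-coding genes. A vehicle-only peak lay at 18 (36.0%), against 25.9%, and 9 (18.0%) had no peak, against 22.6%. Windows near many peaks pass such counts by gene more easily. The 11 listed plasminogen genes had 42 vehicle and 45 TGFβ 2 h peaks, with 11 vehicle-only and 13 TGFβ 2 h-only. Of these 11 genes, 4 had more TGFβ 2 h than vehicle peaks and 2 had fewer. Lrp1, the endocytic receptor that clears activator and inhibitor complexes, was among the 2. It had 10 vehicle and 8 TGFβ 2 h peaks, of which 3 were vehicle-only and 1 TGFβ 2 h-only. The 5 other inhibitor genes (Timp1, Timp4, Reck, A2m and Pzp) had 11 and 10 peaks. None of the 5 had a TGFβ 2 h-only peak, against 40.5% of protein-coding genes, and 3 (60.0%) had a vehicle-only peak, against 25.9%. The 17 other metalloproteinase genes had 32 and 42, and 9 of them (52.9%) had a TGFβ 2 h-only peak by the 1 bp rule, against 40.5% of protein-coding genes.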

How the data were processed

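DNaseI-seq peak lists of NMuMG cells, 1 for vehicle and 1 for TGFβ 2 h, were grouped by sample title. The authors aligned reads to mm9 and used their ATAC-seq pipeline with options for DNaseI-seq that the methods do not give; the submitters' processing notes name MACS2 2.1.2 and deepTools. The series text speaks of duplicates, and replicate lists were not analysed here. The deposited score was used only within its own list. The lists repeat intervals over 70449 vehicle and 68542 TGFβ 2 h rows, and repeats of an interval were collapsed to 1 peak; their meaning is not stated. In each list 1 peak ran past a chromosome end. Overlaps, gene windows, promoters and strings were computed in Python 3.11.15 with pandas 2.3.3, numpy 2.4.6 and pysam 0.24.0 on NCBIM37 with GENCODE M1, with figures drawn in matplotlib 3.10.9, and the steps were tested on simulated data. All 9 genes were named, each with its start-site peaks, its unshared peaks and its highest shared peak. Genes, lists and strings were chosen with earlier results of these data known. The lists carry no read depth, so intervals (Wilson, 95%) cover counting error only and no value was scaled by depth. By the paper's reporting summary the vehicle library was sequenced more deeply than the TGFβ 2 h library; its read numbers were not used, and the part of depth in the peak counts was not tested. The alternatives changed the overlap, the window (20 kb, 100 kb or gene body only), the shortest peak (150 bp), the score threshold, the length of the TGFβ 2 h list, the counting of rows, the start sites, the string window and the set of genes.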

Additional observations from a re-analysis of the deposited data

How the results depend on the processing

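Of 54 recomputed values of the main measures, 6 moved and 0 reversed. The other 48 were shares inside the 95% interval of the reported share or ratios within 1.1 times the reported ratio. These labels compare a value with its main setting, not with the whole list. Those intervals are wide. Within them the vehicle-only share of 3.23% ran from 2.4% with every row counted to 16.1% with the shortened TGFβ 2 h list. The shares over all were then 11.6% and 23.9%. The AP-1 share of 18.2% ran from 11.1% with a 20 kb window to 36.4% over the whole peak. At or above the median score, the TGFβ 2 h-only share was 39.1%, against 25.2% of all, and the vehicle-only share 12.5%, against 11.4%. In the main setting both member shares were below those of the whole lists. With gene bodies only, the TGFβ 2 h-only share went from 28.3% to 47.1% (8 of 17), the ratio of TGFβ 2 h to vehicle peaks from 1.48 to 2.12, and the AP-1 share of distal TGFβ 2 h-only peaks from 18.2% to 0.0% (0 of 7). That ratio was 1.16 with the TGFβ 2 h list shortened by score to the length of the vehicle list, 1.03 with every deposited row counted, and 1.34 without Timp3; the shorter list, the rows and the missing gene are part of how these settings are built, and the cause was not tested beyond that. In the shortened list, whose lowest score was 655, 9 of the 13 TGFβ 2 h-only peaks were left. Of 72 recomputed counts of TGFβ 2 h-only peaks per gene, 59 stayed within 1.5 times and 13 moved: with 50% reciprocal overlap Mmp9 had 3 and Mmp14 had 1, with a 20 kb window Plau had 0, with 100 kb Plat had 4 and Timp2 had 7, with gene bodies only Plau and Plaur had 0 and Timp2 had 1, with peaks at or above the median score Serpine2 had 0, Timp3 had 1 and Mmp14 had 1, and with the shortened list Serpine2 had 0 and Timp3 had 3. Serpine2, Plau and Plaur thus each lost their only such peak under at least 1 setting. Score filters also remove partners: of the 9 TGFβ 2 h peaks without a partner at or above the median score, 4 (at Plau, Plat, Timp2 and Mmp14) were shared in the full lists, and of the 5 vehicle peaks without one in the shortened list, 4 were. No paired analysis was possible because a single list stood for each treatment.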

Other observations

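Among the 50 listed genes outside the 9, the main start had a peak in both lists at 17 and in neither at 31. Over all protein-coding genes these shares were 41.4% and 54.6%, and the small rest had a peak in a single list. At the listed genes that was so at 2. Adamts1, a secreted metalloproteinase with thrombospondin repeats, had a TGFβ 2 h-only peak at its start (chr16:85803234-85803611, score 545). Mmp15, a membrane-type metalloproteinase, had a vehicle-only peak at its start (chr8:97876144-97876670, score 573). Both scores were near the lowest value of 540 in the lists. Bsg, which encodes a cell-surface inducer of metalloproteinases, had 8 vehicle and 4 TGFβ 2 h peaks, of which 4 were vehicle-only and 0 TGFβ 2 h-only. Its group of 13 other metalloproteinases and activators had 46 and 45 peaks, with 12 vehicle-only and 13 TGFβ 2 h-only. In that group 5 genes had more TGFβ 2 h than vehicle peaks and 3 had fewer. Ctsl, a lysosomal and secreted cysteine protease gene, had 1 vehicle and 4 TGFβ 2 h peaks, of which 3 were TGFβ 2 h-only.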
